A study of Mus musculus with 35 samples.

Results

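Accessible chromatin was measured at 5 genes of the organic anion transporter family, Slco1a1, Slco1a4, Slco1b2, Slco2b1 and Slco2a1, in purified mouse hepatocyte nuclei. The regions were those rows of the merged peak table whose nearest start site belonged to one of these genes and lay within 100 kb, which gave 164 of 177904 regions: 24 for Slco1a1, 28 for Slco1a4, 61 for Slco1b2, 14 for Slco2b1 and 37 for Slco2a1. Nearest start is a label of position only and does not say which gene a region serves.

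All 35 animals carried the alleles CAG-Sun1/sfGFP and Albumin-Cre, so that a tagged nuclear membrane protein, switched on by Cre driven from the albumin promoter, allowed hepatocyte nuclei to be pulled down (INTACT). About 25000 nuclei of each animal were treated with a transposase that cuts open chromatin (ATAC-seq). Tumor cells were placed in mice of a matching strain. C26 (BALB/c) and 8025 (C57BL/6N) cells cause wasting, and the animals of the cachexia groups were taken once weight loss had passed 10%. Livers were collected at zeitgeber time 9, the only collection time the series gives. NC26 (BALB/c) and MC38 (C57BL/6N) tumors left weight stable. The groups were C26 PBS, pre-cachexia and cachexia, NC26 PBS and tumor, and MC38 PBS and tumor with 4 animals each, and 8025 PBS with 3 and cachexia with 4. PBS groups were the controls. Neither age nor sex of the animals is stated in the labels, nor how much weight the pre-cachexia animals had lost. Each tumor line had its own PBS group and was used in 1 strain, so line, strain and cohort cannot be told apart.

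Slco genes encode OATP carriers, membrane proteins that take bile acids, bilirubin, steroid conjugates, thyroid hormones and many drugs from blood into cells. Slco1a1, Slco1a4 and Slco1b2 lie in one cluster and serve the blood-facing membrane of hepatocytes, where Slco1b2 is the mouse counterpart of the human liver carriers OATP1B1 and OATP1B3. Slco1a1 is known as a male-biased gene that depends on growth hormone pulses, whereas Slco1a4 is known to respond to xenobiotic receptors. Slco2b1 also carries steroid sulfates. Slco2a1 carries prostaglandins and is best known from endothelium and other cells rather than from hepatocytes.

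The sequences before the start sites of the 3 clustered carriers are shown because signal around the Slco1a1 start fell in both cachexia models and those of its neighbours Slco1a4 and Slco1b2 give a view of the same cluster, where the start regions passed no cachexia test. The difference between genes was not tested. The start of Gm30843, a long noncoding RNA between Slco1a4 and Slco1a1, is shown because the pair of regions over it had the largest rises in the set. Each line gives the 250 bases before the start, 5′ to 3′, from RefSeq (GRCm38.p6), and all 5 transporter genes had an entry. The windows are chr6:141946963-141947212, minus strand; chr6:141856221-141856470, minus strand; chr6:141629268-141629517, plus strand; and chr6:141875820-141876069, plus strand. Capitals mark matches on either strand to 6 motifs: AGGTCA (a nuclear receptor core motif), TTGNNNCAA (C/EBP), TTCNNNGAA (STAT), TGANTCA (AP-1), TGACNNNGC (NRF2) and the glucocorticoid receptor motif.
Slco1a1: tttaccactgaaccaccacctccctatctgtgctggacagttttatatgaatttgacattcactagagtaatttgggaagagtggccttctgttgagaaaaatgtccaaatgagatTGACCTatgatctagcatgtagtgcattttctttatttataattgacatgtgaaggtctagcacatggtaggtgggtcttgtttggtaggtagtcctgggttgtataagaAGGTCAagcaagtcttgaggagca
Slco1a4: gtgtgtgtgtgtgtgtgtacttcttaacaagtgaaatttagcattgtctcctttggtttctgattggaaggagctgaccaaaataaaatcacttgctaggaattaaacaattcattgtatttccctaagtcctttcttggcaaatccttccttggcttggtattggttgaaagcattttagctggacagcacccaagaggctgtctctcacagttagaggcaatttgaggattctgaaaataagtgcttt
Slco1b2: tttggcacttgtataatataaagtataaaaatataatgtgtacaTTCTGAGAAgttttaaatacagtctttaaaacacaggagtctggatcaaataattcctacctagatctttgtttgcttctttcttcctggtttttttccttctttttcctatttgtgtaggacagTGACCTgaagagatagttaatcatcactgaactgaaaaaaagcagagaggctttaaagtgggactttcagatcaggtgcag
Gm30843: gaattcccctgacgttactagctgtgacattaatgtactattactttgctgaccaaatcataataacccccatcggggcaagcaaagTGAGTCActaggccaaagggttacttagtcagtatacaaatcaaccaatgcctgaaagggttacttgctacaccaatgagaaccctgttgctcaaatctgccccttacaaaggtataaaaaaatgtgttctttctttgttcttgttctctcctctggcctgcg

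The Slco1a1 window held 2 core motifs, at 134 to 129 and 24 to 19 bases before the start, the first of them on the opposite strand. The Slco1b2 window held a core motif on the opposite strand (81 to 76 bases before the start) and a STAT match (206 to 198). None of the 6 motifs matched in the Slco1a4 window, and Gm30843 had 1 AP-1 match, at 163 to 157 bases. Among 32851 promoter windows of this length, 14.02% held the core motif, 5.02% the C/EBP motif, 7.02% the STAT motif, 6.75% the AP-1 motif, 10.2% the NRF2 motif and 0.387% the glucocorticoid receptor motif. A match describes letters only. It does not show binding.

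Signal is given as scaled tags, the number of sequenced fragments in a 400 bp window per 10000000 tags of the library. Of the 164 regions, 58 reached the median signal of all regions (10.9 scaled tags), 18 had a peak listed in all 35 libraries and 52 in only 1, and 66 overlapped a neighbour, so they are not independent. All 164 passed the filter on low values. Libraries held 11344524 to 23754031 tags, apart from NC26 tumor replicate 1 with 3474741.5 (each read end counts as 0.5 tag). At start sites, 5 of 6 hepatocyte marker genes had a region, with a mean per library of 111 to 213 scaled tags over these genes. Means for markers of other liver cells were lower: 2 of 8 endothelial genes (3.03 to 12.9), 1 of 7 macrophage genes (Adgre1, 0 to 8.91), 1 of 5 neutrophil genes (S100a8, 1.32 to 11.9), 4 of 6 stellate cell genes (11.9 to 35.6), 3 of 6 cholangiocyte genes (12.6 to 40.1) and 0 of 6 lymphocyte genes had a region. By single gene, Reln (stellate cell, 14.4 to 107) and Sox9 (cholangiocyte, 25.4 to 104) overlapped the hepatocyte gene Cps1 (68.1 to 192). No other of these non-hepatocyte genes exceeded 28.1 (Lrat). Several of the mean levels differed between cachexia and PBS, in both directions. S100a8 was at 2.56 to 9.29 in C26 PBS and 7.20 to 11.9 in C26 cachexia, and at 1.41 to 5.14 in 8025 PBS and 6.40 to 9.89 in 8025 cachexia. The cholangiocyte genes were at 12.6 to 22.4 and 24.2 to 27.5 in the C26 groups, and at 21.98 to 31.04 and 30.7 to 40.1 in the 8025 groups. Adgre1 was at 1.27 to 4.35 and 2.59 to 8.91 in the C26 groups and at 1.03 to 3.53 and 3.39 to 8.73 in the 8025 groups. Endothelial genes were at 7.33 to 8.52 and 8.75 to 12.9 in C26 and at 4.37 to 7.58 and 7.42 to 9.62 in 8025. Stellate cell genes overlapped in C26, at 12.9 to 21.4 and 14.1 to 18.1, and were lower in cachexia without overlap in 8025, at 19.4 to 25.1 and 13.3 to 18.98. Their part in the results below was not tested.

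In C26 cachexia, 7 of the 164 regions rose and 26 fell against PBS (limma, Benjamini-Hochberg adjusted over 176957 regions at 0.05). Over all regions 14.2% were called, 7.44% higher and 6.81% lower. Slco1a1 held 13 of the 26 falls and no rise, with a median log2 change of -1.13 over its 24 regions. Slco1a4 had 3 rises and 6 falls, Slco1b2 had 5 falls of 61 regions, Slco2b1 had 1 of each, and Slco2a1 had 3 rises and 1 fall. The median log2 change was -0.23 over the 164 regions and 0.00 over all regions.

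In 8025 cachexia, 5 regions rose and 18 fell, against 12.3% called over all regions (7.25% higher and 5.06% lower). Slco1a1 again had falls only, 8 of 24 regions (median log2 change -0.62), and Slco1a4 had 2 rises and 6 falls. Slco1b2 had 1 fall, Slco2b1 had 1 fall, and Slco2a1 had 3 rises and 2 falls. Of the C26 falls 14 of 26 (53.8%) were also falls in 8025, which is 77.8% of the 8025 falls. Over all regions the shared falls were 36.6% of the C26 falls and 49.2% of the 8025 falls. Of the rises 4 were shared, 57.1% of the C26 rises and 80.0% of the 8025 rises (45.1% and 46.2% over all regions), and no region was called in opposite directions. The 14 shared falls were 7 regions of Slco1a1, 6 of Slco1a4 and 1 of Slco2a1. These cohorts have separate PBS groups. Across the 164 regions the changes of both models correlated with Pearson's r = 0.77, beside 0.62 over all 176957 regions. These points share libraries, and overlapping regions share reads.

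**Figure D1:**
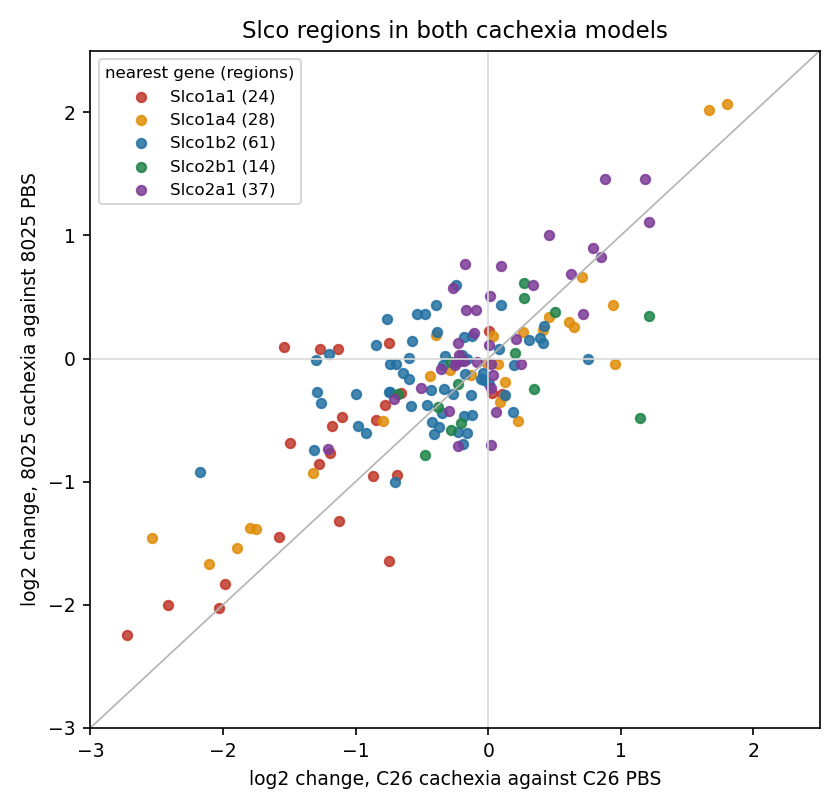
Each point is 1 of the 164 regions, with its log2 change in C26 cachexia on the horizontal axis and in 8025 cachexia on the vertical axis, coloured by nearest gene. The Slco1a1 points lie mostly in the lower left, and a pair of Slco1a4 points stands apart at the upper right with changes of 1.66 to 2.07.

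The region 0.9 kb upstream of the Slco1a1 start (chr6:141947703-141948103, mm10, annotated as promoter) lost most of its signal in both wasting models. It held 25.2, 35.1, 23.2 and 21.4 scaled tags in the C26 PBS animals and 3.17, 2.37, 3.24 and 4.11 in C26 cachexia. The 8025 animals showed 29.9, 37 and 19 with PBS and 4.44, 3.39, 5.26 and 8.73 in cachexia. In both cohorts every cachexia library was below every PBS library. Log2 changes are given ± SE throughout, and here the signal fell by 2.73 ± 0.29 in C26 (limma adjusted p = 5.7e-09) and by 2.24 ± 0.31 in 8025 (adjusted p = 2.2e-06). A peak was listed there in 4 of 4 C26 PBS and 3 of 3 8025 PBS libraries, but in 0 of 4 C26 cachexia and 1 of 4 8025 cachexia libraries. Of the remaining libraries, 1 NC26 tumor library (3 of 4 listed) also lacked it. The C26 cachexia values rest on 6 to 12 read ends per library, against 59 to 118 with PBS. A bulk signal cannot tell fewer nuclei with an open site from less opening in each nucleus.

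Neither pre-cachexia nor a weight-stable tumor gave this fall at a level that passed the test. Pre-cachexia animals held 10.2, 37, 21.1 and 28.7 (-0.31 ± 0.29, adjusted p = 0.76), a spread wider than that of PBS. Cachexia was lower than pre-cachexia, with a log2 change of -2.42 ± 0.29 (adjusted p = 5.6e-07). The NC26 animals showed 30.3, 33.6, 19.9 and 27.6 with PBS and 23, 24.8, 36.6 and 17.2 with tumor (-0.27 ± 0.29, adjusted p = 0.8). The MC38 animals showed 34.8, 19, 14.5 and 45.5 with PBS and 22.1, 44.9, 37.6 and 28.3 with tumor (0.25 ± 0.29, adjusted p = 0.95). Tested directly, the C26 cachexia change was lower than the NC26 tumor change, with a difference of -2.46 ± 0.41 (adjusted p = 5.4e-04), and the 8025 change was lower than the MC38 change, with a difference of -2.50 ± 0.43 (adjusted p = 0.0011).

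Farther upstream, neighbouring sites behaved differently. The intergenic region 15.1 kb before the start (chr6:141961818-141962218) held 48.9, 54.5, 55.4 and 39.1 in C26 PBS and 10.03, 19, 9.07 and 10.3 in C26 cachexia (-2.03 ± 0.19, adjusted p = 2.1e-10). In the 8025 cohort it went from 47.4, 47.2 and 39.6 to 12.4, 14.5, 11 and 5.82 (-2.03 ± 0.21, adjusted p = 3.3e-09). It lies between Slco1a1 and Gm6614 (chr6:141971833-142012263), a RefSeq protein-coding gene model whose nearer end is closer than the Slco1a1 start. No cachexia library reached the lowest PBS library of its cohort. Pre-cachexia libraries lay above all cachexia libraries and overlapped PBS, at 24.7, 39.5, 33.5 and 34.3 (-0.66 ± 0.19, adjusted p = 0.069 against PBS; -1.37 ± 0.19, adjusted p = 7.4e-06 for cachexia against pre-cachexia). With tumors that left weight stable it was at 47.5, 37.2, 44.7 and 43.3 in NC26 (44.6 to 66.4 with PBS) and at 44.6, 57.5, 48.2 and 45.5 in MC38 (38.8 to 57.5 with PBS). The effects of cachexia and of stable tumors differed by -1.61 ± 0.27 for C26 minus NC26 (adjusted p = 5.4e-04) and by -1.94 ± 0.28 for 8025 minus MC38 (adjusted p = 1.1e-04).

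Only 1.3 kb from it, the region 13.7 kb before the start (chr6:141960481-141960881), the strongest of Slco1a1, passed no test in cachexia. C26 PBS animals had 41, 54.5, 42.1 and 39.1 and C26 cachexia animals 52, 56.5, 44.4 and 41.8 (0.10 ± 0.13, adjusted p = 0.68). The 8025 values were 63, 59.2 and 66.1 with PBS and 54.4, 50.4, 46.1 and 59.9 in cachexia (-0.29 ± 0.14, adjusted p = 0.2), and groups overlapped in both cohorts. The region over the start itself (chr6:141946684-141947084), which overlaps the near end of the printed promoter, was weak but fell. It went from 12, 12.1, 6.81 and 10.1 to 2.64, 5.54, 1.94 and 2.06 in C26 (-1.57 ± 0.30, adjusted p = 2.0e-04) and from 9.97, 7.05 and 14.7 to 2.96, 3.88, 1.68 and 4.65 in 8025 (-1.45 ± 0.33, adjusted p = 0.0017), without overlap. Its changes with NC26 tumor (-0.33 ± 0.30, adjusted p = 0.75) and MC38 tumor (-0.21 ± 0.30, adjusted p = 0.97) did not pass, and the differences from the cachexia changes did not pass either (adjusted p = 0.12 and adjusted p = 0.16).

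The 13 Slco1a1 regions that fell in C26 cachexia had log2 changes from -2.73 to -0.87, and 8 of them lay inside the gene among 17 such regions. The 8 that fell in 8025 ranged from -2.24 to -0.96, with 4 inside the gene. The regions 28789 and 29636 bp upstream lie within the Gm6614 body and are counted with Slco1a1 by nearest start only. Regions of Slco1a1 that were not called ranged from -1.18 to 0.10 in C26 and from -0.95 to 0.23 in 8025. Their median signal was low, 5.26 and 4.47 scaled tags. In pre-cachexia no Slco1a1 region was called. Values were below PBS in 23 of 24 (median log2 change -0.58) and 10 had an unadjusted p under 0.05, beside 117 of the 164 regions below PBS, 49.6% of all regions below PBS and 11.9% of all regions with such a p. These regions share libraries and partly overlap, so the counts are no test.

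**Figure D2:**
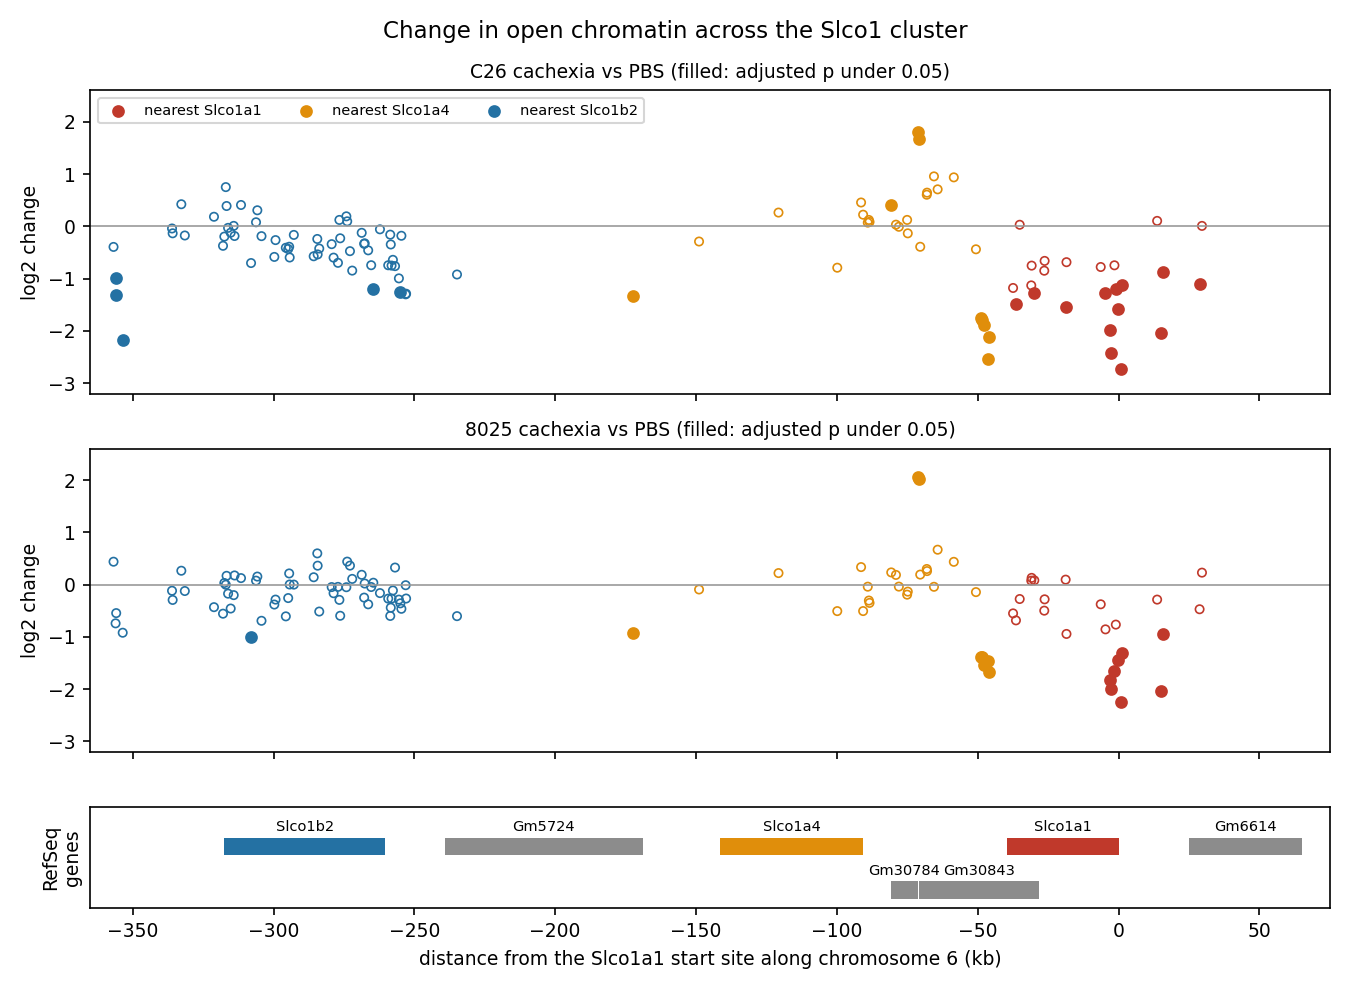
Log2 change of each region of the Slco1 cluster in C26 cachexia (top) and 8025 cachexia (middle) against its distance in kb from the Slco1a1 start, with RefSeq genes below; filled points passed the test. Falls gather around the Slco1a1 start and beyond its far end, a pair of rises stands at the left end of Gm30843, and the Slco1b2 regions scatter closer to 0.

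Regions assigned to Slco1a4 split by position. The largest rises of the whole set were a pair of overlapping regions 19.7 and 19.8 kb upstream of its start (chr6:141875720-141876120 and chr6:141875868-141876268). They cover the RefSeq start of Gm30843 (position 141876070, plus strand), next to the gene model Gm30784, and the Gm30843 promoter is printed above. The first of them held 11.7, 12.1, 13 and 10.9 scaled tags in C26 PBS and 42, 38, 41.5 and 61 in C26 cachexia (1.80 ± 0.28, adjusted p = 1.0e-05). In the 8025 cohort it held 10.9, 6.35 and 23.2 with PBS and 55.3, 47.3, 91.4 and 35.8 in cachexia (2.07 ± 0.30, adjusted p = 5.0e-06). Every cachexia library exceeded every PBS library of its cohort. Its overlapping partner changed by 1.66 ± 0.27 in C26 and 2.02 ± 0.29 in 8025 (adjusted p = 2.0e-05 and 4.2e-06).

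Pre-cachexia libraries held 16.9, 17.3, 15.4 and 20.7 at the first region of this pair, all above PBS, but the change did not pass (0.43 ± 0.28, adjusted p = 0.59). Cachexia exceeded pre-cachexia by 1.36 ± 0.28 (adjusted p = 0.0017). NC26 tumor animals had 15.8, 22.3, 17.8 and 35.6 (0.31 ± 0.28, adjusted p = 0.75) and MC38 tumor animals 21.5, 23.7, 14.6 and 27 (0.45 ± 0.28, adjusted p = 0.87), both overlapping their PBS animals. The cachexia change exceeded the stable-tumor change by 1.49 ± 0.40 in BALB/c (adjusted p = 0.033) and by 1.62 ± 0.41 in C57BL/6N (adjusted p = 0.029).

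A block of 5 called regions, centred 41.8 to 44.6 kb upstream of Slco1a4, fell in both models. Their centres lie 6.5 to 9.2 kb past the 3′ end of Slco1a1 and inside the Gm30843 body (chr6:141876070-141918758), so by distance they are nearer to the Slco1a1 gene than to Slco1a4 and carry the Slco1a4 name because starts, not gene ends, were used. The region at 42.2 kb (chr6:141898229-141898629) held 29, 46.8, 22.6 and 21.7 in C26 PBS, 10.7, 31, 7.57 and 13.3 in pre-cachexia and 7.92, 6.33, 8.75 and 8.23 in cachexia. In the 8025 cohort it held 16.2, 16.9 and 10.6 with PBS and 3.55, 7.03, 8.0 and 2.91 in cachexia. The log2 changes were -1.80 ± 0.28 in C26 (adjusted p = 6.8e-06) and -1.38 ± 0.30 in 8025 (adjusted p = 0.0012), with no overlap of groups. Its value was also lower in all 4 MC38 tumor libraries (14.3, 9.62, 17.1 and 13.5) than in all 4 MC38 PBS libraries (32.5, 20.3, 18.6 and 21.2), but that change did not pass (-0.76 ± 0.28, adjusted p = 0.6).

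The weaker region at 44.3 kb (chr6:141900280-141900680) had the largest fall in C26 among the Slco1a4 regions, from 10.3, 10.2, 8.05 and 12 to 0.79, 1.58, 0.65 and 1.03 (-2.54 ± 0.34, adjusted p = 3.8e-07), and went from 8.1, 8.81 and 5.92 to 1.77, 2.18, 2.32 and 2.33 in 8025 (-1.46 ± 0.37, adjusted p = 0.0047). The C26 cachexia values are 2 to 4 read ends per library. These regions at 42.2 and 44.3 kb were the 2 of 164 regions called in pre-cachexia, both lower, against 1.31% over all regions (1.05% higher and 0.264% lower). The log2 changes there were -1.11 ± 0.28 (adjusted p = 0.028) and -1.47 ± 0.34 (adjusted p = 0.013). Both calls were lost without C26 PBS replicate 1 or without pre-cachexia replicate 1, and that at 42.2 kb also without C26 PBS replicate 2 or pre-cachexia replicate 3 or 4, with library totals only and with only the compared groups fitted. The highest adjusted p over the alternatives was 0.14 for each.

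The strongest region named for Slco1a4 lay 81.5 kb downstream of its start, past the end of the gene (chr6:141774485-141774885), within Gm5724, a RefSeq protein-coding gene model whose start is 3.4 kb away. It held 56.8, 68.5, 49.5 and 52.9 in C26 PBS and 23.8, 29.3, 24.6 and 15.1 in C26 cachexia (-1.32 ± 0.20, adjusted p = 1.1e-05). The 8025 values were 53.6, 81.4 and 91.8 with PBS and 23.7, 49.9, 39.4 and 50.04 in cachexia (-0.93 ± 0.22, adjusted p = 0.0031). Groups did not overlap in either cohort, and pre-cachexia (44.8, 82.9, 36.2 and 55.9) overlapped PBS. The Slco1a4 start region (chr6:141856094-141856494) did not pass, with 5.76, 12.8, 8.67 and 7.97 in C26 PBS and 11.1, 7.91, 12.3 and 10.3 in cachexia (0.22 ± 0.24, adjusted p = 0.62), and 18.1, 13.4 and 16.2 against 11.2, 12.4, 11 and 9.89 in 8025 (-0.51 ± 0.26, adjusted p = 0.22), where every cachexia library was below every PBS library. The third rise in C26 was a region 10.1 kb upstream, named here after its values were seen (0.41 ± 0.14, adjusted p = 0.042). The 4 regions inside the Slco1a4 gene, too few to read a position from, held no call in either model.

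**Figure D3:**
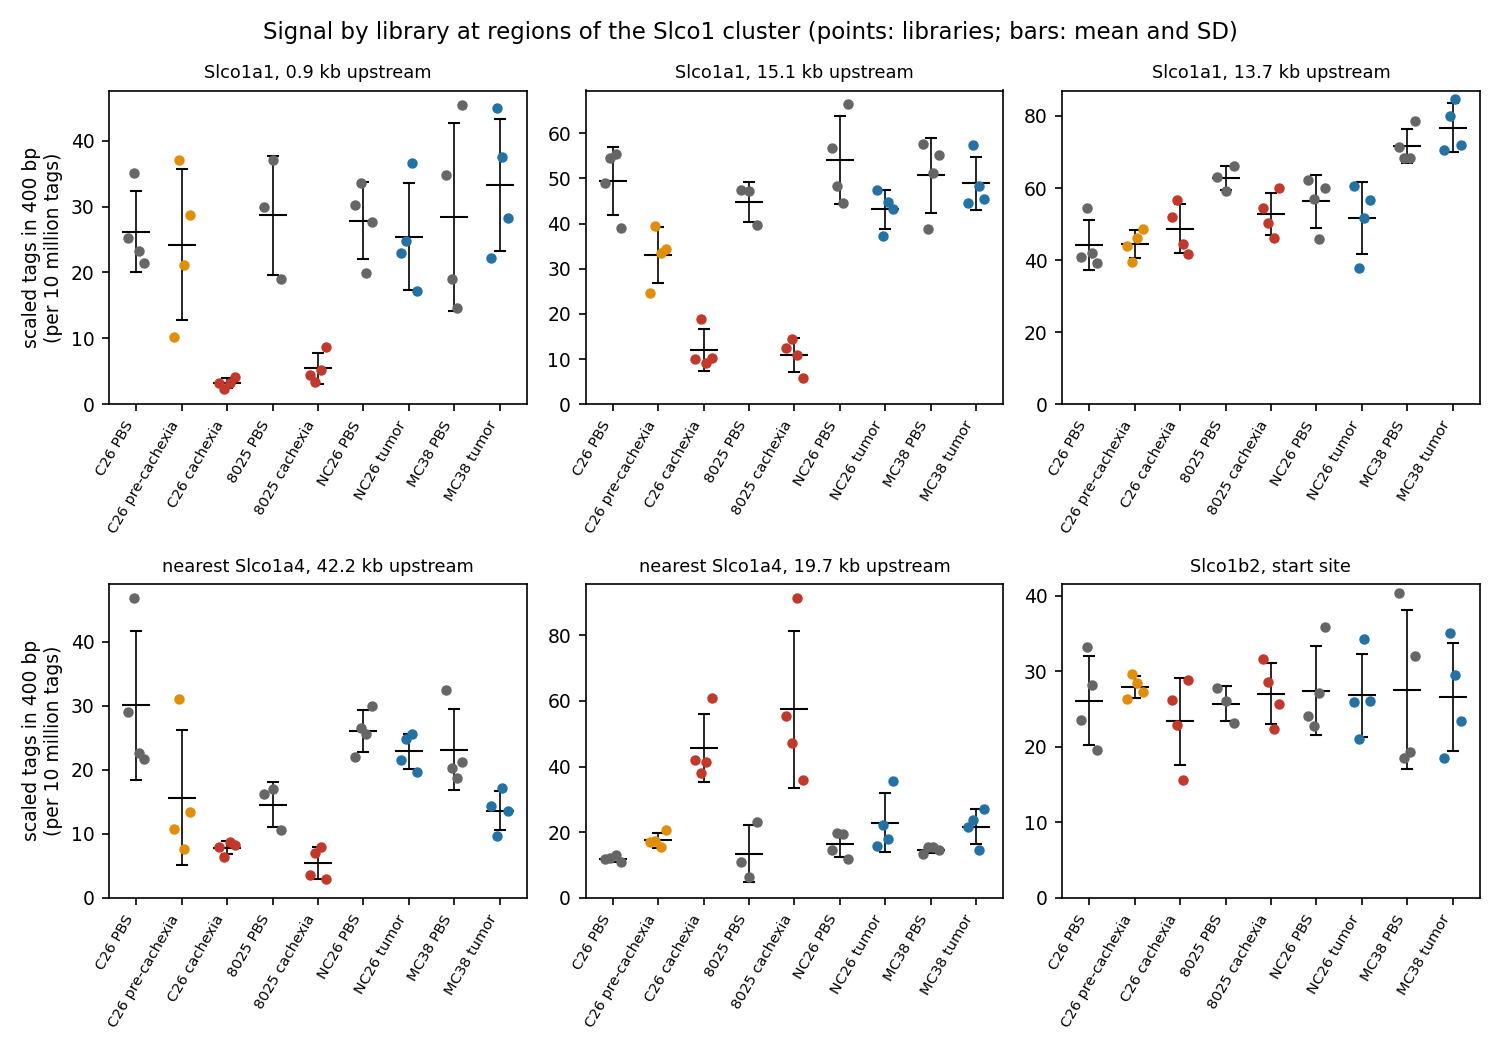
Scaled tags in each library (points) with mean and SD (bars) at 6 regions of the cluster, by group. Cachexia points sit below all PBS points of their cohort at 0.9 and 15.1 kb upstream of Slco1a1 and at 42.2 kb upstream of Slco1a4. They sit above them at 19.7 kb and overlap them at 13.7 kb and at the Slco1b2 start. At 13.7 kb most 8025 cachexia points lie below the 8025 PBS points.

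Of the 61 regions of Slco1b2, 5 (8.20%) fell in C26 cachexia, near the 6.81% over all regions, and 1 fell in 8025, with none shared. Its start region (chr6:141629305-141629705) held 23.5, 33.1, 28.2 and 19.6 in C26 PBS, 26.3, 29.6, 28.4 and 27.2 in pre-cachexia and 26.1, 22.9, 15.6 and 28.8 in cachexia (-0.20 ± 0.19, adjusted p = 0.57 against PBS). In the 8025 cohort the values were 27.7, 26.1 and 23.2 with PBS and 31.6, 28.6, 22.3 and 25.6 in cachexia (0.03 ± 0.20, adjusted p = 0.96). Groups overlapped in both cohorts. The strongest region of the whole set, 18.6 kb upstream (chr6:141610735-141611135), had 105, 147, 120.4 and 96.7 in C26 PBS and 118, 121, 98.2 and 126 in cachexia (-0.04 ± 0.12, adjusted p = 0.88), and did not pass in 8025 either (-0.12 ± 0.13, adjusted p = 0.63).

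A distal pair of overlapping regions 38.6 and 38.4 kb upstream (chr6:141590699-141591099 and chr6:141590911-141591311) fell in C26. The first held 40.6, 38.2, 33.1 and 50.7 in PBS and 15.6, 21.8, 11 and 17.5 in cachexia (-1.31 ± 0.24, adjusted p = 1.1e-04), and the second 50.6, 54.8, 55.1 and 48.2 and 19.8, 36.8, 26.3 and 25.7 (-0.99 ± 0.19, adjusted p = 1.8e-04). In 8025 their changes did not pass (-0.74 ± 0.26, adjusted p = 0.052 and -0.55 ± 0.20, adjusted p = 0.07), although no cachexia library reached the PBS libraries. The C26 and 8025 changes did not differ at the threshold. Pre-cachexia replicate 2 stood apart at both, with 64.2 and 69.8, beside 21.9 to 24.6 and 34.3 to 37.0 in the other 3. Both were called lower in cachexia than in pre-cachexia (adjusted p = 0.033 and 0.046), calls that were lost without that library (highest adjusted p over alternatives 0.28 and 0.29), and also without C26 cachexia replicate 1, 3 or 4, with library totals only, with only the compared groups fitted, and at the second without pre-cachexia replicate 1 or 3.

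The largest change of Slco1b2, 36.1 kb upstream (chr6:141593224-141593624), was at a weak site, from 6.19, 6.05, 8.67 and 7.24 to 3.17, 0, 0.65 and 0.69 in C26 (-2.18 ± 0.46, adjusted p = 5.7e-04), where cachexia libraries held 0 to 12 read ends. In 8025, an intronic region 9.5 kb inside the gene (chr6:141638793-141639193) went from 18.4, 14.1 and 11.3 to 4.73, 6.54, 8.42 and 8.15 (-1.0 ± 0.29, adjusted p = 0.014). That call was lost without 8025 PBS replicate 1 or 2 or cachexia replicate 1 (highest adjusted p 0.13). In C26 the same region had a change of -0.70 ± 0.27 (adjusted p = 0.069).

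Outside the cluster, RefSeq lists Slco2b1 starts at chr7:99695809, 99706842 and 99711340. Distances here are from 99695809, the start farthest inside the gene, and no region of the set overlapped the promoter windows of the others. The region over this start (chr7:99695583-99695983) was strongly open and passed no cachexia test. It held 94.4, 101, 94.7 and 93.1 in C26 PBS and 83.2, 87, 80.7 and 83.3 in cachexia (-0.23 ± 0.15, adjusted p = 0.33). In 8025 it held 74.8, 111 and 97 and 90.2, 76.1, 70.7 and 96.9 (-0.20 ± 0.16, adjusted p = 0.47). The C26 groups did not overlap although the test did not pass, and those of 8025 did. The strongest region, 1.6 kb inside the gene (chr7:99694018-99694418), did not pass in C26 (0.34 ± 0.15, adjusted p = 0.12) or 8025 (-0.25 ± 0.16, adjusted p = 0.35), although the C26 change passed when only the compared groups were fitted (adjusted p = 0.032). In intron 7, a region 14.9 kb inside (chr7:99680678-99681078) fell in C26, from 56.2, 65, 53.6 and 63.8 to 34.6, 36.8, 41.5 and 38.4 (-0.68 ± 0.18, adjusted p = 0.0068), and was lower than in pre-cachexia (-0.78 ± 0.18, adjusted p = 0.0048). The fall against PBS was lost with library totals as the only scaling (adjusted p = 0.057).

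An overlapping region of the same intron, 15.3 kb inside (chr7:99680323-99680723), was the one that passed in 8025, from 37.1, 28.6 and 35 to 18.9, 18.4, 28.6 and 14.3 (-0.78 ± 0.21, adjusted p = 0.0098), with groups that overlapped and a call that was lost without 8025 PBS replicate 1 or cachexia replicate 4. Farther in, 17.9 kb from the start (chr7:99677709-99678109), the signal was low and rose in C26, from 1.71, 4.78, 3.1 and 4.35 to 5.28, 8.7, 11.3 and 12.7 (1.21 ± 0.36, adjusted p = 0.016). That call was lost without C26 PBS replicate 1 or cachexia replicate 3 or 4 (highest adjusted p 0.073).

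For Slco2a1, the prostaglandin carrier, the start region (chr9:103008192-103008592) held 48.3, 36.3, 47.1 and 40.9 in C26 PBS and 34.3, 52.6, 29.5 and 35.3 in cachexia (-0.24 ± 0.18, adjusted p = 0.45), and 28.7, 37.4 and 54.3 and 44.1, 36.6, 39.99 and 35.8 in 8025 (-0.03 ± 0.20, adjusted p = 0.96). The strongest region, 12.0 kb upstream (chr9:102996258-102996658), did not pass either (0.25 ± 0.13, adjusted p = 0.22 and -0.04 ± 0.14, adjusted p = 0.9). Called regions were 4 of 37 in C26 (10.8%) and 5 in 8025 (13.5%), near the shares over all regions. The 12 regions inside the gene held no call, a number too small to read a position from. One 31.2 kb upstream (chr9:102977075-102977475) fell in both. It held 28, 24.9, 30.3 and 31.2 in C26 PBS, 20.1, 24, 17.8 and 15.9 in pre-cachexia and 11.1, 14.2, 11.7 and 11.7 in cachexia, so that the 3 groups did not overlap (-1.21 ± 0.21, adjusted p = 5.6e-05 for cachexia against PBS; -0.63 ± 0.21, adjusted p = 0.15 for pre-cachexia). In 8025 it went from 18.1, 17.6 and 20.6 to 10.7, 8.48, 10.1 and 16.6 (-0.74 ± 0.23, adjusted p = 0.027).

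Rises at Slco2a1 were at weaker or distal sites. The region 74.0 kb upstream (chr9:102934318-102934718) rose in C26, from 33.5, 48.8, 37.5 and 24.6 to 49.4, 72, 71 and 50.1 (0.72 ± 0.18, adjusted p = 0.0036), and not at the threshold in 8025 (0.36 ± 0.19, adjusted p = 0.24). A pair of overlapping regions 41.1 and 41.2 kb upstream (chr9:102967228-102967628 and chr9:102967094-102967494) had low signal. The first rose in both models, from 0.85, 1.27, 0.62 and 2.17 to 2.9, 2.77, 5.83 and 4.8 in C26 (1.18 ± 0.38, adjusted p = 0.029) and from 4.36, 1.41 and 2.06 to 5.03, 9.21, 15.2 and 7.56 in 8025 (1.46 ± 0.41, adjusted p = 0.013). The second rose in 8025 (1.45 ± 0.44, adjusted p = 0.02), and its C26 change did not pass (0.88 ± 0.41, adjusted p = 0.15). The third rise of both models, named here after its values were seen, was 23.2 kb upstream (1.21 ± 0.33, adjusted p = 0.008 in C26 and 1.11 ± 0.35, adjusted p = 0.031 in 8025). At 41.1 kb the C26 call was lost with a pseudocount of 5, without C26 PBS replicate 1, 2 or 3 and without cachexia replicate 3 or 4. The 8025 calls of the pair were lost without PBS replicate 2 or cachexia replicate 3, and that of the first without PBS replicate 4 too. Endothelial marker starts, given above, were higher in C26 cachexia than in C26 PBS without overlap, and the ranges overlapped in 8025. Their part in these rises was not tested.

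**Figure D4:**
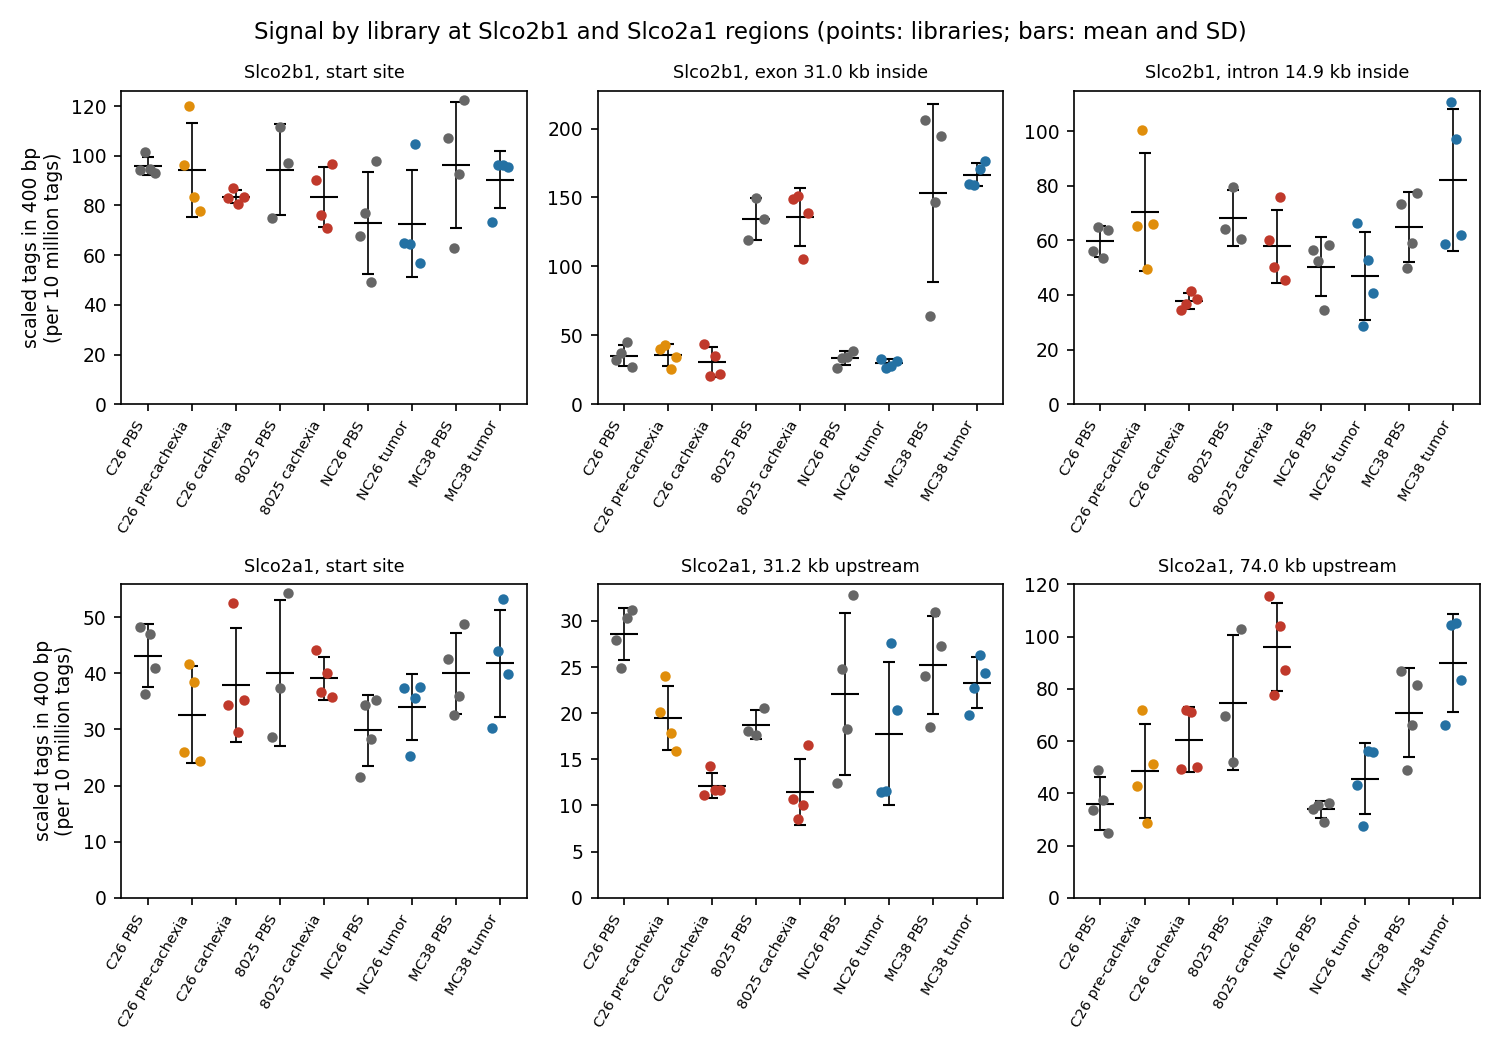
Scaled tags in each library (points) with mean and SD (bars) at 3 regions of Slco2b1 and 3 of Slco2a1, by group. The Slco2a1 region 31.2 kb upstream is lower in cachexia, and the Slco2b1 exon region separates the C57BL/6N cohorts (8025 and MC38) from the BALB/c cohorts.

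Tumors that left weight stable gave no called region. With NC26, 0 of 164 regions passed (0.176% over all regions, 0.136% higher and 0.0401% lower). An unadjusted limma p under 0.05 was found at 16 of the 164, beside 10.5% of all regions. With edgeR and DESeq2 on the recovered reads the count was also 0. The library numbers form a lower and a higher series, and the labels do not say what these are. All C26 libraries are in the lower series and all 8025 libraries in the higher, so series goes with model there. The NC26 and MC38 groups span both. Fitted within either series alone the NC26 count was 0 as well, but 2 regions were called without NC26 tumor replicate 2. Without the shallow replicate 1 the count was 0. With MC38, 0 passed (0.0186% over all regions, 0.0181% higher and 0.000565% lower). Here 7 of the 164 had an unadjusted p under 0.05, beside 6.32% of all regions, and both other tools called 0. The median log2 changes over the 164 regions were -0.16 for NC26 and -0.10 for MC38, beside -0.04 and 0.00 over all regions.

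Cachexia and stable-tumor changes were also compared directly. The C26 cachexia change was higher than the NC26 tumor change at 2 regions and lower at 10 (2.22% over all regions, 1.2% higher and 1.02% lower), with 4 of the lower ones at Slco1a1, 4 at Slco1a4 and 2 at Slco1b2. Without NC26 PBS replicate 1 the total was 6, and without the shallow NC26 tumor replicate 1 it was 9. For 8025 against MC38, 2 were higher and 3 lower (1.71% over all regions, 0.962% higher and 0.747% lower). The 3 lower ones were at Slco1a1 and the 2 higher ones were the Gm30843 pair. Without 1 library this total was 2 to 6. C26 and 8025 cachexia did not differ at any of the 164 regions (0.101% over all regions, 0.0266% higher and 0.074% lower). Of these, 8 had an unadjusted p under 0.05, beside 9.08% of all regions, and edgeR and DESeq2 called 0. A miss at the threshold does not show that they are alike.

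Against pre-cachexia, C26 cachexia was higher at 4 regions and lower at 10 (5.43% over all regions, 2.23% higher and 3.21% lower). Slco1a1 had 4 of the falls, Slco1a4 had 4 rises and 3 falls, Slco1b2 had 2 falls and Slco2b1 had 1. Leaving out 1 library gave totals of 7 to 17, with 7 without pre-cachexia replicate 2, 8 without cachexia replicate 4 and 9 without cachexia replicate 3.

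The PBS animals of both strains were also compared. Of 164 regions, 2 were higher and 8 lower in BALB/c than in C57BL/6N (13.5% over all regions, 6.41% higher and 7.06% lower). The lowest adjusted p belonged to a Slco2b1 exon region 31025 bp inside the gene (chr7:99664584-99664984), described here after its values were seen. It held 31.8, 37.3, 45.2 and 26.8 in C26 PBS and 26.6, 33.6, 34.5 and 38.8 in NC26 PBS. In the C57BL/6N cohorts it held 119, 149 and 134 in 8025 PBS and 206, 64.4, 147 and 195 in MC38 PBS (-1.81 ± 0.15, adjusted p = 3.2e-12 for BALB/c minus C57BL/6N). Every BALB/c PBS library was below every C57BL/6N PBS library. Its changes in cachexia did not pass (-0.28 ± 0.19, adjusted p = 0.38 in C26 and -0.03 ± 0.20, adjusted p = 0.96 in 8025). Strain goes with cohort, and reads of both strains were aligned to the mm10 reference, which is of the C57BL/6 line, so strain, cohort and alignment cannot be told apart. The Slco1a4 start (-0.63 ± 0.20, adjusted p = 0.025) and the Slco2a1 region 74.0 kb upstream (-0.85 ± 0.14, adjusted p = 1.8e-05) were lower in BALB/c as well, and the weak Slco1b2 region 36.1 kb upstream was higher (1.40 ± 0.37, adjusted p = 0.0065).

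Other transporters and regulators, from lists drawn up for this tissue with earlier results of these data known, were read over the same distance. Of 10 other Slco genes 7 had regions, 37 in all, of which 0 rose and 2 fell in C26 cachexia (5.41% called) and 3 rose and 2 fell in 8025 (13.5%), beside 14.2% and 12.3% over all regions. A region 1877 bp downstream of the start of Slco4a1, a thyroid hormone carrier, fell in both (-1.14 ± 0.31, adjusted p = 0.0074, and -1.01 ± 0.33, adjusted p = 0.035). Slco1a6, which lies beyond Slco1a1 on chromosome 6, had an upstream region that rose in 8025 (1.56 ± 1.55 to 9.87 ± 5.90 scaled tags, mean ± SD, n = 3 and 4; log2 change 2.08 ± 0.53, adjusted p = 0.0055) and did not pass in C26 (-0.19 ± 0.49).

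Among 6 other uptake carriers, with 124 regions, 4 rose and 7 fell in C26 and 7 rose and 4 fell in 8025, 8.87% called in each, which is below the 14.2% and 12.3% over all regions. The bile acid carrier Slc10a1 (NTCP) had no call in C26 and 1 fall in 8025, at its start (81.6 ± 7.11 to 64.3 ± 15.7 scaled tags; -0.40 ± 0.13, adjusted p = 0.036). Of 13 efflux pump genes 12 had regions, 182 in all, with 4 rises and 22 falls in C26 (14.3% called) and 8 rises and 19 falls in 8025 (14.8%). These totals are near the shares over all regions, but the calls leaned to falls. Over all regions 7.44% were higher and 6.81% lower in C26, and 7.25% higher and 5.06% lower in 8025. A region 53388 bp downstream of the start of Abcb11, the bile salt export pump gene, rose in both (1.14 ± 0.29, adjusted p = 0.0060, and 1.64 ± 0.32, adjusted p = 0.00038). Abcg2 had 7 falls among 24 regions in C26 and 9 falls and 1 rise in 8025.

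The 12 regulator genes held 376 regions, of which 21 rose and 33 fell in C26 cachexia (14.4% called) and 14 rose and 48 fell in 8025 (16.5%). In C26 that total is close to the share over all regions (14.2%), and in 8025 it is somewhat above (12.3%), so the genes below are described only. By direction the calls leaned to falls, most in 8025. Over all regions 7.44% were higher and 6.81% lower in C26, and 7.25% higher and 5.06% lower in 8025. Cebpa, which encodes a hepatocyte transcription factor, had 8 falls and 1 rise among 27 regions in C26 and 9 falls in 8025. The regions with the lowest adjusted p went from 109 ± 25.1 to 37.4 ± 8.65 scaled tags in C26 (-1.55 ± 0.19, adjusted p = 5.4e-07) and from 199 ± 19.2 to 47.2 ± 14.7 in 8025 (-2.14 ± 0.23, adjusted p = 4.9e-07). Nfe2l2 (NRF2), with 36 regions, had 7 falls and 1 rise in C26 and 8 falls in 8025, and Ppara, with 29, had 7 falls and 2 rises in C26 and 7 falls in 8025. The bile acid receptor gene Nr1h4 (FXR), with 40 regions, had 3 rises in C26 and 3 falls in 8025. No region of the list differed between both models at the threshold, where 0.101% did over all regions. In NC26 and MC38 tumors no region of these 4 lists passed, beside 0.176% and 0.0186% over all regions. With shares this low, lists of this size would hold few calls or none.

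Like patterns were sought among 26620 promoter regions of other genes, by Pearson's r over 35 libraries after subtracting each cohort's PBS mean. The closest to the Slco1a1 start were Platr4 (r = 0.87), Tsc22d1 (0.87) and Acaa1b (0.86), of which Acaa1b encodes a peroxisomal thiolase. Acaa1b went from 28.3 to 9.79 scaled tags in C26 (group means) and from 30.6 to 10.1 in 8025. The closest for the other starts had lower values: Timm8b for Slco1a4 (0.70), Gm30726 for Slco1b2 (0.68), Tnfrsf19 for Slco2b1 (0.75) and 2310040G24Rik for Slco2a1 (0.70). These are descriptions of likeness chosen as the highest of many, over points that share libraries.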

How the data were processed

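ATAC-seq signal was measured in 35 libraries of mouse hepatocyte nuclei. Per the file headers, the deposited signal is the number of tags within 400 bp at each of 177904 merged peaks, which the authors brought to 10000000 tags for every library. BWA (0.7.5a-r405), SAMtools, HOMER and the build mm10 are named in the submitters' processing notes. Dividing by the value of 1 read end gave whole numbers for 100% of values (within 0.05).

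The log2 of the value after TMM scaling plus a pseudocount of 1 was tested with limma (3.58.1, R 4.3.3; trend, robust) over all 9 groups with library series as a covariate, for 10 comparisons. The filter of edgeR (4.0.16; count 10, total 15) removed 947 regions. Benjamini-Hochberg adjustment ran over the 176957 others at 0.05. All fold changes are on the log2 (value + 1) scale, which understates changes of weak regions, and errors after ± are standard errors (SE) unless SD is written. Alternatives were library totals, a pseudocount of 5, no filter, only the groups compared, a replicate block, a distance of 10 kb, each library left out, and edgeR and DESeq2 (1.42.0) on the recovered reads. On those reads edgeR called 13474 regions higher and 11906 lower in C26 cachexia, and 14131 and 10582 in 8025. Depth sets the value of 1 read end, 0.210 to 0.441 scaled tags and 1.44 in NC26 tumor replicate 1. Each library is from its own animal. The code was tested on simulated data.

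Named regions were, per gene, the one nearest its start, the strongest, the 2 called ones with the lowest adjusted p in each comparison within a cohort, and the called one with the largest change in cachexia. Members, lists and this rule were chosen with earlier results of these data known. No genome was at hand, so sequences of the distal regions are not shown. Some listed items are not reported here.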

Additional observations from a re-analysis of the deposited data

Results flagged for a closer look

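In 216 groups of 4 libraries, 13 held a library far from the others, where chance gives about 1 in 20. C26 pre-cachexia replicate 2 was the high library at 3 Slco1b2 regions: 156.23 scaled tags at 18.6 kb upstream (others 107 to 115), 64.18 at 38.6 kb (21.9 to 24.6) and 69.83 at 38.4 kb (34.3 to 37.0). C26 cachexia replicate 2 was high at the Slco1a1 region 15.1 kb upstream, with 18.98 (others 9.07 to 10.3), and at the Slco2a1 region 12.0 kb upstream, with 140.37 (92.7 to 97.2). At the Slco1a4 start, C26 pre-cachexia replicate 3 was low with 6.49 (9.11 to 9.65).

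Stable-tumor libraries stood apart at a few sites. The Slco1a4 region 44.3 kb upstream held 4.77 in NC26 tumor replicate 4 (others 12.4 to 13.4) and 4.94 in MC38 tumor replicate 4 (6.73 to 6.91). At the Slco2b1 start, NC26 tumor replicate 3 was high with 104.52 (56.7 to 64.8) and MC38 tumor replicate 1 low with 73.19 (95.5 to 96.5). The Slco2a1 start held 25.26 in NC26 tumor replicate 2 (35.6 to 37.6). At the weak Slco1b2 region 36.1 kb upstream, 8025 cachexia replicate 4 had 2.62 (0.42 to 0.59) and NC26 tumor replicate 3 had 8.07 (1.91 to 2.88).

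The change in cachexia differed from that with a stable tumor at 7 named regions for C26 against NC26. The differences of log2 changes (limma, adjusted over all regions) were -2.46 and -1.61 at Slco1a1, 0.9 and 15.1 kb upstream. Among the Slco1a4 regions they were -2.61 at 44.3 kb upstream, -1.51 at 42.2 kb, 1.49 at 19.7 kb, 1.43 at 19.8 kb and -1.32 at 81.5 kb downstream. For 8025 against MC38, 4 differed: -2.50 and -1.94 at the same Slco1a1 regions, and 1.62 at each of the pair 19.7 and 19.8 kb upstream of Slco1a4.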

How the results depend on the processing

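Of 863 refits of 52 named changes, 819 kept direction and side of the threshold, 43 lost the call, 1 gained it and 0 reversed. Within 10 kb of a start fewer regions were counted. The calls there were 7 (C26 cachexia), 0 (pre-cachexia), 3 (cachexia against pre-cachexia) and 7 (8025). They were 3 for C26 minus NC26, 2 for 8025 minus MC38 and 2 for strain. No share called over all regions within 10 kb was set beside them, so these counts do not show whether the called share changed. The 2 pre-cachexia calls became 1 with library totals, 6 with a pseudocount of 5, 4 with only the groups compared, 3 with edgeR and 6 with DESeq2. The 5 calls for 8025 minus MC38 became 3 with only the groups compared and 8 with DESeq2. The cause was not tested. Without 1 library, calls ranged from 28 to 35 (C26), 0 to 4 (pre-cachexia), 7 to 17 (cachexia against pre-cachexia), 17 to 24 (8025), 0 to 2 (NC26), 0 to 0 (MC38), 6 to 14 (C26 minus NC26), 2 to 6 (8025 minus MC38), 0 to 0 (C26 minus 8025) and 8 to 12 (strain). Pre-cachexia calls were 0 without C26 PBS replicate 1 or pre-cachexia replicate 1, 1 without C26 PBS replicate 2 or pre-cachexia replicate 4, and 4 without pre-cachexia replicate 2. For 8025 minus MC38 the calls were 2 without 8025 PBS replicate 2, MC38 PBS replicate 3 or MC38 tumor replicate 3, and 3 without 8025 PBS replicate 1, 8025 cachexia replicate 3 or MC38 PBS replicate 2. Deviations from the group mean correlated at -0.16 to 0.08 between same-numbered libraries, which were not treated as paired. The same-numbered PBS library was the closest match for C26 pre-cachexia replicates 1 and 2 and for NC26 tumor replicates 1, 2 and 3. With a replicate block the calls were 33, 2, 13, 23, 0, 0, 12, 5, 0 and 12, in the order used for left-out libraries. The 5 calls among other Slco genes in 8025 then became 3. Weak regions rest on few read ends.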
